A study of Homo sapiens with 9 samples.

Results

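Cytosolic ribosomal proteins were followed here at the RNA level in IMR-32, a human neuroblastoma cell line. The members were chosen by name: protein-coding genes whose symbol is RPL or RPS with a number and at most 1 closing letter A, X or L, together with RPLP0, RPLP1, RPLP2 and RPSA, without pseudogenes. Of the 22290 genes tested, 72 were members, with 40 of the large subunit, 28 of the small subunit and 4 paralogues whose symbol ends in L. Another 9 symbols of the annotation match the same name rule and were not analysed here. The study asked how the mitochondrial chaperone TRAP-1 shapes the transcriptome, and sequenced RNA from parental cells (PAR, genotype WT), TRAP-1 knockdown cells (KD) and TRAP-1 overexpression cells (OE), with 3 libraries each. All 9 libraries are described as coming from IMR-32 cells grown under the same culture conditions, and the engineered cells had been made for an earlier study. The sources used here do not give the knockdown or overexpression vector of these cells, a vector control, or the number of clones. They do not say that replicates were separate cultures either, so p-values measure the spread between these samples, which may be technical.

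A ribosome consists of a large and a small subunit, and each subunit is a scaffold of ribosomal RNA decorated with ribosomal proteins. The proteins are needed in nearly equal numbers, are made in the cytoplasm, and are assembled with the RNA in the nucleolus. Their mRNAs are among the most abundant in a dividing cell, and many begin with a run of pyrimidines, the 5′ terminal oligopyrimidine (TOP) tract, through which mTOR signalling and the protein LARP1 adjust their translation and stability. In neuroblastoma, MYC-family factors are known drivers of ribosome production.

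The targeted gene was examined first. TRAP1 had rlog values of 10.67, 10.66 and 10.65 in the parental libraries, 10.79, 10.79 and 10.83 in those labelled KD, and 10.67, 10.63 and 10.74 in those labelled OE. The values are regularized log2 expression, called rlog, in which each gene is drawn toward its own mean, so that differences come out smaller than they would unshrunken. All libraries labelled KD lay above all parental ones, by 0.14 on the log2 scale (95% confidence interval 0.088 to 0.19, limma adjusted p = 1.76e-05), which goes against the label. The libraries labelled OE overlapped the parental ones (difference 0.018, adjusted p = 0.643 in limma), and TRAP1 was called higher there only with neighbours' medians subtracted (0.066), as described with the chromosomal pattern. The names KD and OE are therefore used only as labels. Of the TRAP1 exonic bases, 28.5% are shared with other genes, chiefly DNASE1.

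The labelled cell type was compared with its markers. Of 13 sympathetic neuroblastoma markers 9 were analysed, and most of these had low values. The mean rlog over the 9 libraries was 2.54 for MYCN, although IMR-32 is known for an amplified MYCN gene, 1.34 for PHOX2A, 2.73 for TH and 3.97 for CHGA. The most abundant were ISL1 at 9.29 and GATA2 at 9.20, with GATA3 at 7.27 and HAND2 at 6.34. Of the 4 epithelial markers analysed, KRT18 at 12.04 and CLDN4 at 9.89 were above ISL1 and GATA2, while KRT8 at 8.96 and EPCAM at 2.58 were below them. The summed level of the 9 neuroblastoma markers, as 2 to the power rlog, was 1626, 1587 and 1598 in the parental libraries, 1475, 1458 and 1495 in those labelled KD, and 1492, 1578 and 1540 in those labelled OE. That of the 4 epithelial markers was 5805, 5822 and 5767 in the parental libraries, 5856, 6027 and 6100 in those labelled KD, and 5304, 5260 and 5321 in those labelled OE. KRT18 carries most of that sum, and its members did not move together: KRT8 differed by 0.39 in KD-labelled libraries and by 0.40 in OE-labelled ones, and CLDN4 by -0.57 in the latter. Among 7 fibroblast markers PDGFRB was the most abundant at 8.53, and COL1A2 was at 1.37. The 3 leukocyte markers analysed were all below 6, with PTPRC at 2.65. The markers thus went against the neuroblastoma label at MYCN, PHOX2A and TH, although the study's methods say that the line had been authenticated, and their part in the results on ribosomal protein genes was not tested.

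Ribosomal protein mRNAs were very abundant in all 9 libraries. A mean rlog of 13 or more was found for 65 of the 72 members, and the lowest of these 65 lay above 97.4% of all genes. The members together made up 6.48 to 6.58% of the summed expression (2 to the power rlog) in the parental libraries, 6.61 to 6.73% in those labelled KD and 6.71 to 6.89% in those labelled OE. Both labelled groups therefore lay above the parental range, and their own ranges overlapped. Scaled to transcript length, the highest levels belonged to RPS2 and RPS18 of the small subunit and RPLP0 of the large subunit stalk. The lowest, paralogues apart, belonged to RPL5, RPL22 and RPS15A. RPL5 stood far below its partners with rlog values of 5.93, 5.87 and 5.92 in the parental libraries. Its protein is nonetheless needed once per ribosome, like most of the others. RPL22, a protein near the exit tunnel that mice can live without, had 9.06, 9.16 and 9.12.

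The median rlog of the 72 members was 14.80, 14.81 and 14.77 in the parental libraries, 14.85, 14.83 and 14.86 in those labelled KD, and 14.86, 14.84 and 14.89 in those labelled OE. All 6 values of the labelled groups were above the 3 parental ones. In mean ± SD these were 14.79 ± 0.018, 14.85 ± 0.018 and 14.86 ± 0.027 (n = 3 each). The distance between libraries over the members was taken as a root mean square of rlog differences. It was 0.0263 to 0.0535 within a group and 0.0532 to 0.177 between groups. These ranges overlapped slightly, since OE 2 was 0.0535 from OE 3 and 0.0532 from PAR 2. Over all genes it was 0.058 to 0.063 within a group and 0.14 to 0.26 between groups. In bulk RNA, fewer cells of a kind and less RNA per cell cannot be told apart.

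**Figure D1:**
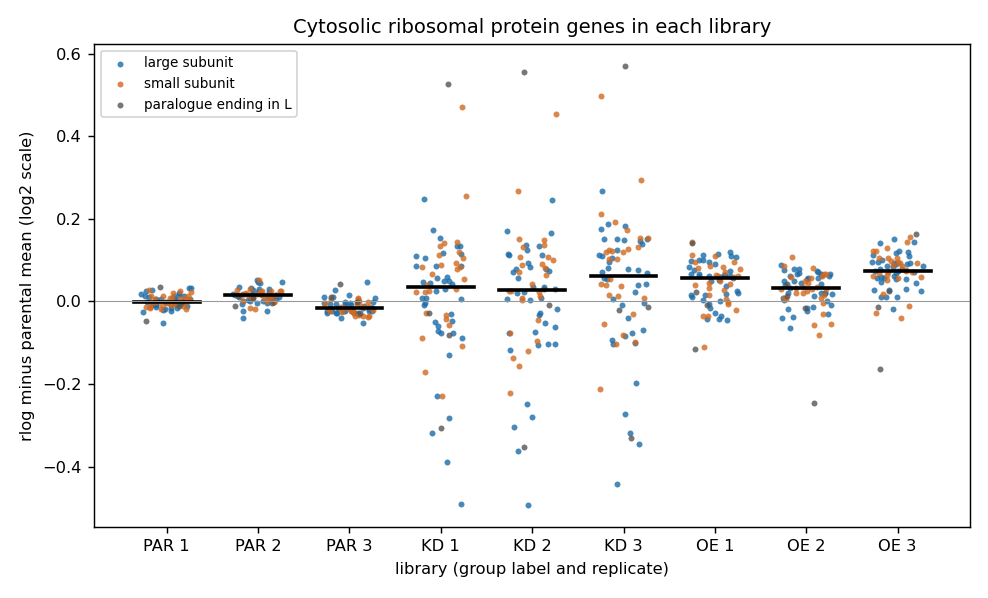
Each point is a member in 1 library, plotted as its rlog minus its parental mean (log2 scale), with the library on the horizontal axis, and the black bar is the median of the 72 members. The points of the libraries labelled OE lie in a narrow band mostly above 0, while those of the libraries labelled KD spread from about RPL35 at the bottom to RPL39L at the top.

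The start sequences show what most of these genes share. RefSeq promoter entries for GRCh38.p14 were matched for 56 members, and the annotated first base of each of their 67 entries was examined on the strand of the gene. A TOP-like start was counted where that base was C and at least the next 4 bases were each C or T, and a gene was counted if any of its entries had one. It was found for 42 of the 56 members (75.0%), against 5.14% of 27305 genes, and at 62.7% of the 67 entries, against 4.07% of all 35116 promoters in the same table. Of mitochondrial ribosomal proteins it was found for 6 of 69 (8.70%). The sequences below run 5′ to 3′ from 10 bases before the annotated start to 20 bases from it on, and capitals mark the pyrimidine run at the start. They are shown for 10 of the genes whose differences are described next: RPL35 (chr9:124861938-124861967, minus strand), RPL29 (chr3:51995876-51995905, minus), RPL7A (chr9:133348208-133348237, plus), RPL14 (chr3:40457329-40457358, plus), RPSA (chr3:39406710-39406739, plus), RPS12 (chr6:132814559-132814588, plus), RPL28 (chr19:55385922-55385951, plus), RPL39 (chrX:119791611-119791640, minus), RPS29 (chr14:49598691-49598720, minus) and RPS27L (chr15:63157458-63157487, minus).
RPL35: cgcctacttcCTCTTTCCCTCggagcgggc
RPL29: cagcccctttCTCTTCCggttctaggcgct
RPL7A: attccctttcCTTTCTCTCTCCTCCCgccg
RPL14: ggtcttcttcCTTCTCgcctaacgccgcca
RPSA: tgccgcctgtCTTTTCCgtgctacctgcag
RPS12: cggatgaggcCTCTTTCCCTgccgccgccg
RPL28: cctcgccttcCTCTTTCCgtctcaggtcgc
RPL39: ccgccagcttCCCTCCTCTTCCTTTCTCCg
RPS29: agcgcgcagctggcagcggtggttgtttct
RPS27L: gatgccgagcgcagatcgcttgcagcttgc
The first 8 begin with such a run, and RPS29 and RPS27L have none at this annotated base, which says only that these letters are not there. Members that were lower in KD-labelled libraries (RPL35, RPL29) and members that were higher (RPS12, RPL28) both carry a run, while RPL4 and RPS29, also higher, have none at the annotated base.

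Ribosomal protein mRNAs were slightly higher on a broad front in the libraries labelled OE. At a limma adjusted p under 0.05, 48 of the 72 members were higher than in the parental libraries and 4 were lower, against 16.9% of all genes higher and 18.0% lower. Among the 664 other genes averaging 13 or more in rlog, where small differences pass the test more often, 33.0% were higher and 39.3% lower. The median difference of the members was 0.054 (SD over members 0.050, range -0.18 to 0.13), beside 0.00039 over all genes. By subunit, 26 of 40 large subunit genes were higher and 1 lower (median 0.054), and 21 of 28 small subunit genes were higher and 2 lower (median 0.057). With no trend of the variance on the level in the model, 30 members were called higher and 1 lower. With the median rlog of every library set equal, 38 members were higher and 6 lower (median 0.036), and of all genes 2963 were higher and 5212 lower, in place of 3762 and 4002. The 4 lower calls became 2 without parental replicate 2 or without OE replicate 2, and 7 without OE replicate 3.

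The largest increases in the libraries labelled OE were in RPS29, a zinc-binding protein of the small subunit head, RPL39L, RPL30, RPL12 of the stalk base, and RPS18. RPS29 had 13.78, 13.78 and 13.76 in the parental libraries and 13.92, 13.88 and 13.92 in those labelled OE. The groups did not overlap, and the difference was 0.13 (1.10-fold, limma adjusted p = 1.55e-09). RPL30 differed by 0.11 (95% confidence interval 0.081 to 0.15) and RPS18 by 0.099 (0.077 to 0.12). RPL12 differed by 0.11 (0.081 to 0.14). With neighbours' medians subtracted, RPL30 had 0.069 and RPL12 0.21. The 4 lower members were RPS27L by -0.18, RPS15 by -0.073, RPS26 by -0.045 and RPL35 by -0.039. Of these calls, those of RPS26 and RPL35 were lost without parental replicate 2 or OE replicate 2, at differences of -0.038 and -0.031 without the former. Those of RPS15, RPS26 and RPL35 were lost with no variance trend. Under the same subtraction, described with the chromosomal pattern, RPS15 was no longer called (-0.019) and RPL35 turned to 0.066.

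Under the KD label the members' differences were wider and ran both ways. Of the 72 members 37 were higher and 20 lower than in the parental libraries at a limma adjusted p under 0.05, against 26.9% of all genes higher and 26.9% lower. Of the 664 other genes at 13 or more, 40.2% were higher and 43.2% lower. The median difference was 0.036, beside -0.00051 over all genes, but the members ranged from -0.48 to 0.55 (SD 0.16). Differences over all genes were wider under the KD label too, with an SD of 0.25 against 0.13 under the OE label. For the other genes at 13 or more the SD was 0.26 against 0.13. The large subunit had 19 higher and 12 lower genes of 40 (median 0.036), and the small subunit 17 higher and 7 lower of 28 (median 0.074). Both comparisons share their parental libraries, so their values are given side by side only.

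**Figure D2:**
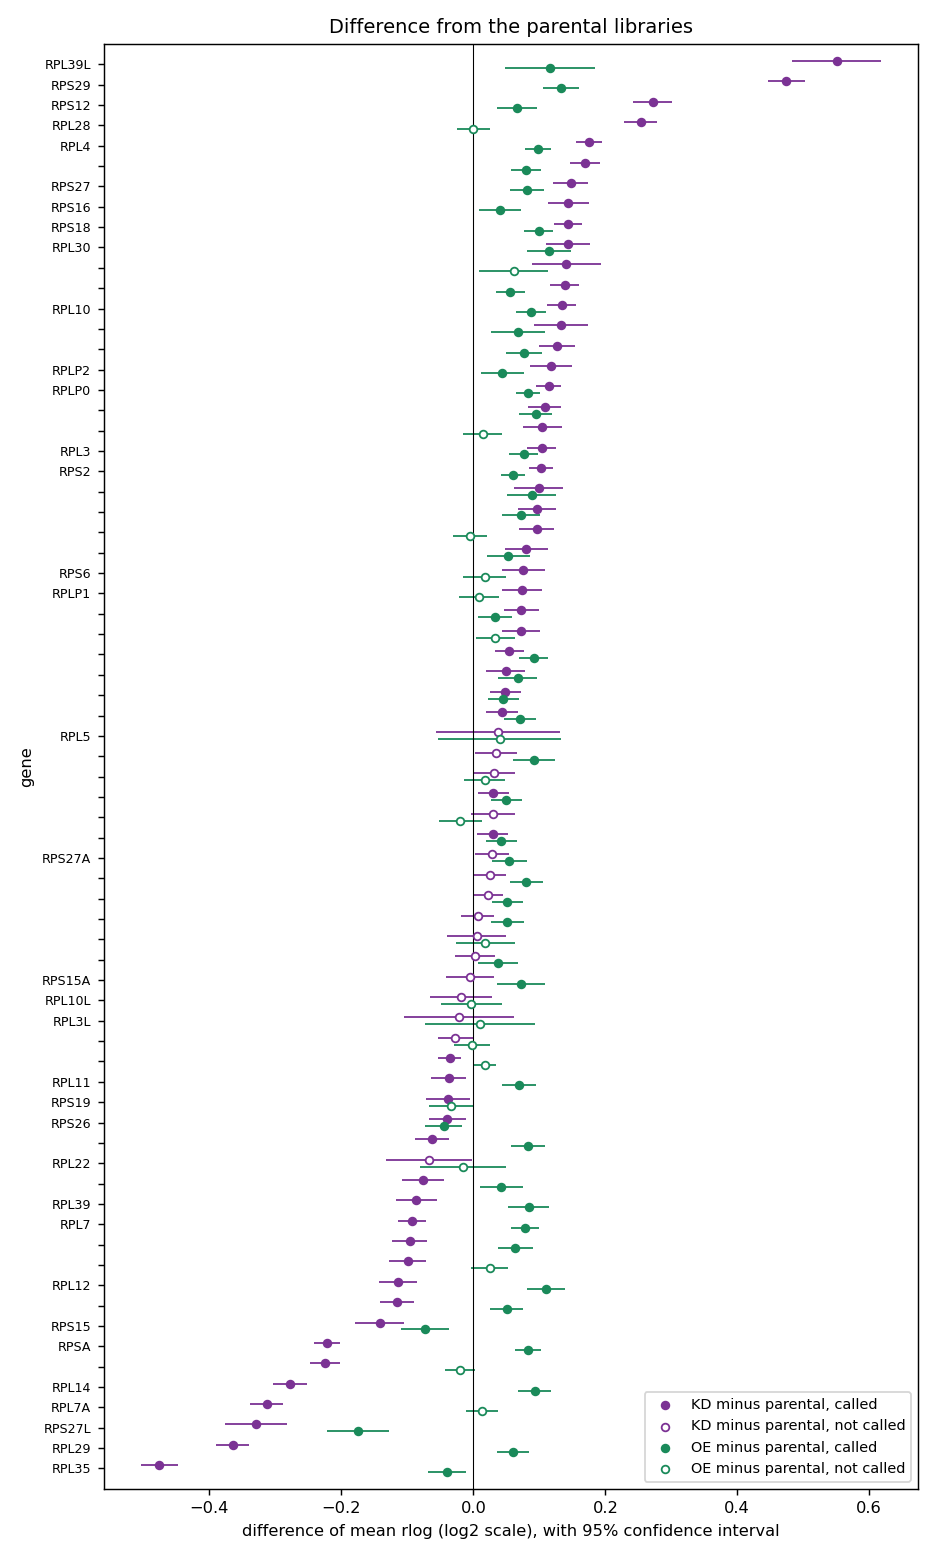
Each row is a member, 70 in all and named where the text names it by rule, with its difference from the parental mean (rlog, log2 scale) on the horizontal axis for the libraries labelled KD (purple) and OE (green), and lines show the 95% confidence interval (n = 3 libraries a group). Filled points passed the test; the KD points run from -0.48 for RPL35 to 0.55 for RPL39L, and the OE points from -0.18 for RPS27L to 0.13 for RPS29.

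The strongest increases in the libraries labelled KD were in RPL39L, described with the paralogues, and in RPS29, RPS12, RPL28 and RPL4. RPS29 rose from 13.78, 13.78 and 13.76 to 14.25, 14.23 and 14.27, a difference of 0.47 (1.39-fold, 95% confidence interval 0.45 to 0.50, limma adjusted p = 4.5e-24). RPS12, a small subunit protein, had 14.87, 14.88 and 14.82 in the parental libraries and 15.11, 15.12 and 15.15 in those labelled KD (difference 0.27). RPL28, on the large subunit surface, had 14.30, 14.30 and 14.32 against 14.56, 14.55 and 14.58 (difference 0.25). In all 3 genes each library labelled KD lay above each parental one. In the libraries labelled OE, RPS12 was 0.066 above the parental mean and RPL28 was 0.00021 above it, a call only for RPS12, which was lost with no variance trend and with neighbours' medians subtracted (0.026). RPL4, whose extension lines the exit tunnel, differed by 0.18 in the libraries labelled KD and by 0.097 in those labelled OE.

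The strongest decreases in the libraries labelled KD were in RPL35, RPL29, RPL7A, RPL14 and the paralogue RPS27L. RPL35, a protein at the rim of the exit tunnel, had 14.30, 14.33 and 14.30 in the parental libraries, 13.82, 13.82 and 13.87 in those labelled KD, and 14.28, 14.25 and 14.29 in those labelled OE. Its KD values lay far below all others, with a difference from parental of -0.48 (0.719-fold, limma adjusted p = 1.06e-23). RPL29 had 15.12, 15.12 and 15.10 in the parental libraries, 14.72, 14.75 and 14.77 in those labelled KD, and 15.17, 15.15 and 15.20 in those labelled OE. RPL14 had 14.60, 14.60 and 14.57, then 14.31, 14.31 and 14.31, then 14.68, 14.65 and 14.71 in the same order. For both genes the KD libraries were lowest and the OE libraries highest, without overlap. RPL7A, a large subunit protein whose gene also hosts small nucleolar RNAs, had 15.65, 15.64 and 15.61 in the parental libraries against 15.32, 15.33 and 15.32 in those labelled KD, a difference of -0.31. RPSA, the small subunit protein also known as a laminin receptor, had 16.13, 16.11 and 16.09 against 15.88, 15.89 and 15.90, a difference of -0.22. For both, the KD values lay below every parental value.

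These decreases had a chromosomal pattern. For each member, the other genes in the same 20-Mb block of its chromosome that averaged 8 or more in rlog were taken as neighbours, with all members left out. RPL35, RPL7A and RPL12 lie between 120 and 140 Mb on chromosome 9, where the median difference of 161 neighbours in the libraries labelled KD was -0.35 and 93.8% of them were below the parental mean. RPL29 and RPL14 lie between 40 and 60 Mb on chromosome 3, where 137 neighbours had a median of -0.31 and 94.9% were lower. In the adjoining block from 20 to 40 Mb, which holds RPSA, 52 neighbours had a median of -0.24. RPL8, named here after its values were seen, lies in a block of chromosome 8 whose 62 neighbours had a median of -0.23, and RPL8 itself differed by -0.23 (-0.0048 and no longer called with neighbours' medians subtracted). Of the blocks that hold a member, these 4 are those with a neighbours' median below -0.2 in KD-labelled libraries. All 7 members in them were lower there (median -0.28), and of the other 65 members, in 45 blocks, 37 were higher and 13 lower (median 0.049). The split describes the pattern and does not test it, because the decreases of these members had already been seen. In the libraries labelled OE the neighbours of RPL29 and RPL14 had a median difference of -0.0063 and those of RPL35 -0.10.

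With the block median of such neighbours subtracted in each library, a setting added after the data were seen, the difference of RPL35 in the libraries labelled KD was -0.13 and that of RPL29 -0.058. RPL7A, RPL14 and RPSA then had 0.036, 0.028 and 0.027, and RPL12 turned from -0.11 to 0.24. The differences of RPS29 (0.45) and RPS27L (-0.35) changed little, and RPL39L went from 0.55 to 0.32. Under that setting 40 members were higher and 17 lower in KD-labelled libraries, and 56 were higher and 2 lower in those labelled OE. Across the 72 members, the difference in the libraries labelled KD and the neighbours' median had a Pearson r of 0.63 and a Spearman rho of 0.25. For the libraries labelled OE they were 0.29 and 0.34. The points share libraries, and members of a block share neighbours. Why the blocks differed was not tested.

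**Figure D3:**
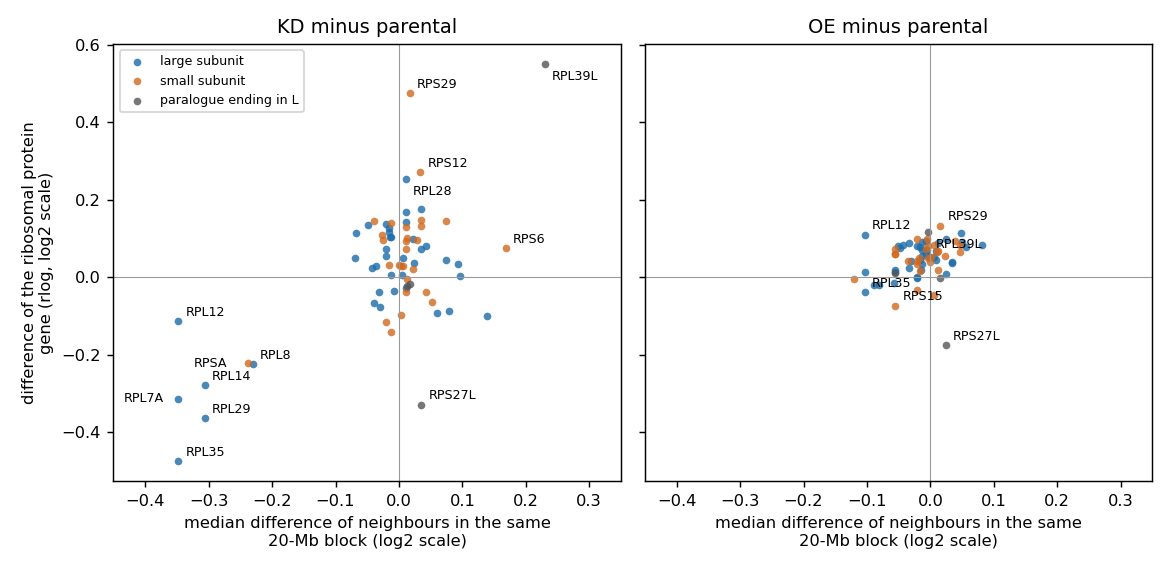
Each point is a member, with the median difference of its neighbours in the same 20-Mb block on the horizontal axis and its own difference on the vertical axis (both rlog, log2 scale), for the libraries labelled KD (left) and OE (right) against parental. At the left, 7 members sit at neighbour medians from -0.35 to -0.23, all with differences below 0, while RPS29 and RPS27L are far from 0 at neighbour medians of 0.017 and 0.035.

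The libraries labelled OE and KD were also compared directly. At a limma adjusted p under 0.05, 24 members were higher in those labelled OE and 27 were lower, against 23.5% of all genes higher and 23.8% lower and 41.1% and 38.4% of the other genes at 13 or more. The median difference was 0.0035, and its sign changed without KD replicate 2 (-0.011), without OE replicate 3 (-0.0071), with median scaling (-0.0033) and at a mean rlog of at least 5 (-0.00034). With no variance trend, 19 members were called higher and 12 lower. With neighbours' medians subtracted 33 were higher and 18 lower, and with sum scaling 29 and 25. The highest members were RPL35 (0.44), RPL29 (0.42), RPL14 (0.37), RPL7A (0.33) and RPSA (0.30), all of them in the chromosome 9 and chromosome 3 blocks named above. With neighbours' medians subtracted these were 0.19, 0.12, 0.070 and 0.083, and the call of RPSA was lost (0.0010). The lowest were RPL39L (-0.43), RPS29 (-0.34), RPL28 (-0.25), RPS12 (-0.21) and RPS16 (-0.10), with RPL39L at -0.21 under that subtraction. The large subunit had 16 higher and 13 lower genes, and the small subunit 7 higher and 13 lower.

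In the labelled groups 11 members were called on opposite sides of parental. The share of all genes called in this way is not given here, so the count is not set against the rest of the series. RPL12 had 15.14, 15.13 and 15.08 in the parental libraries, 14.99, 15.00 and 15.02 in those labelled KD, and 15.23, 15.19 and 15.26 in those labelled OE. The 3 groups did not overlap, and OE minus KD was 0.22 (limma adjusted p = 8.24e-15). RPL39, a small protein inside the exit tunnel, differed from parental by -0.086 in the libraries labelled KD and by 0.084 in those labelled OE, and RPL7 by -0.093 and 0.079. With neighbours' medians subtracted, the OE difference of RPL39 became -0.027, that of RPL7 became 0.023 and OE minus KD of RPL12 became -0.021, and none of these was then called. Under that subtraction 9 members were called on opposite sides, again with no share of all genes to set beside it, and 5 of them were among the 11. These 5 were RPL29 and, named after their values were seen, RPL38, RPS24, RPS3A and RPS7.

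Among the paralogues, RPL39L and RPS27L were called in every comparison. RPL39L, a paralogue of RPL39 known for its role in the testis and its expression in many tumours, had 9.01, 8.97 and 8.95 in the parental libraries, 9.50, 9.53 and 9.55 in those labelled KD, and 9.12, 9.02 and 9.14 in those labelled OE. All libraries labelled KD were well above the rest, with a difference from parental of 0.55 (1.47-fold, 95% confidence interval 0.48 to 0.62, limma adjusted p = 1.37e-15). Its 76 neighbours on chromosome 3, between 180 and 200 Mb, had a median difference of 0.23 there. Per transcript length, RPL39L stood at 1.20% of RPL39 in the parental libraries, 1.86% in those labelled KD and 1.22% in those labelled OE.

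RPS27L, a paralogue of RPS27 known as a p53 target, had 11.98, 12.01 and 11.99 in the parental libraries, 11.69, 11.64 and 11.66 in those labelled KD, and 11.88, 11.75 and 11.83 in those labelled OE. Both labelled groups lay below parental, by -0.33 and -0.18 (limma adjusted p = 6.25e-14 and 2.14e-07), while RPS27 itself was higher by 0.15 and 0.081. RPL3L, the form used in heart and skeletal muscle, had a mean rlog of 4.01 over the 9 libraries, and RPL10L, the retrogene active in the testis, 2.18. Neither was called in any of the 3 comparisons. Their parents RPL3 and RPL10 were higher in the libraries labelled KD (0.10 and 0.13) and in those labelled OE (0.076 and 0.087).

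RPL22L1, a paralogue of RPL22 outside the name rule, had a difference of -0.50 in the libraries labelled KD (limma adjusted p = 3.93e-20) and of -0.084 in those labelled OE. RPL22 differed by -0.068 and -0.016 and was not called, except in the libraries labelled KD without parental replicate 1 (-0.094). Other ribosomal protein genes outside the rule were examined as well. RPL7L1 was lower in both (-0.23 and -0.087), RPL26L1 was lower in those labelled KD (-0.12), and RPL36AL was higher in both (0.089 and 0.047). FAU, which encodes a ubiquitin-like fusion to a small subunit protein, was higher in those labelled KD by 0.043, a call lost without parental replicate 3, KD replicate 2 or KD replicate 3 (0.033, 0.038 and 0.031). The OE call of RPL36AL was lost without parental replicate 1 or 3, KD replicate 2, or OE replicate 1 or 3, at differences from 0.033 to 0.047. It was also lost with only the 2 groups compared, with the length and GC correction (0.026), with block medians over all genes (0.033) and with neighbours' medians subtracted (0.037).

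**Figure D4:**
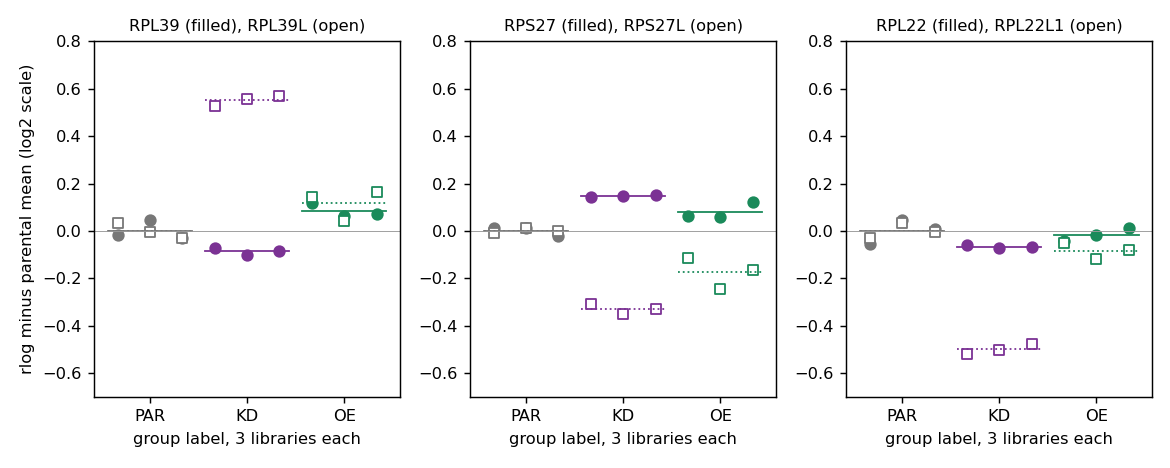
Each panel shows a parent gene (filled circles) and its paralogue (open squares) in the 9 libraries, as rlog minus the parental mean (log2 scale), with lines at the group means. In the libraries labelled KD, RPL39L stood 0.55 above its parental mean, RPS27L -0.33 and RPL22L1 -0.50 from theirs, while RPL39, RPS27 and RPL22 were at -0.086, 0.15 and -0.068.

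By role, the stalk that recruits translation factors had 3 of its 4 genes higher in the libraries labelled KD, namely RPLP0 (0.11), RPLP1 (0.074) and RPLP2 (0.12), with RPL12 lower. Under the OE label 3 were higher as well: RPLP0 (0.083), RPLP2 (0.044) and RPL12. For this and the other roles, the shares of all genes were 26.9% higher and 26.9% lower under the KD label and 16.9% and 18.0% under the OE label, and those of the other genes at 13 or more 40.2% and 43.2%, and 33.0% and 39.3%. The OE call of RPLP2 was lost without parental replicate 1 or 2 or OE replicate 3 (0.041, 0.042 and 0.019). Of the pair that carries the 5S RNA and can bind MDM2, RPL11 was lower in KD-labelled libraries (-0.038) and higher in those labelled OE (0.069), and RPL5 was called in neither. The KD call of RPL11 was lost without parental replicate 2 or KD replicate 1 or 2 (-0.022, -0.031 and -0.030), with block medians over all genes (-0.023) and with neighbours' medians subtracted (-0.020). Around the exit tunnel, 7 of 9 listed genes were analysed: 3 were higher and 2 lower in KD-labelled libraries, and 4 higher and 1 lower in those labelled OE. The higher calls are 42.9% and 57.1% of these 7, and the lower calls 28.6% and 14.3%. Of 6 genes at the mRNA entry and exit, 4 were higher and 2 lower in those labelled KD, and 4 higher and 1 lower in those labelled OE, so that 66.7% were higher under each label, and 33.3% and 16.7% lower.

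Of genes mutated in Diamond-Blackfan anaemia, 11 of 16 listed were analysed, with 2 higher and 6 lower in KD-labelled libraries and 5 higher and 2 lower in those labelled OE. The shares were 18.2% higher and 54.5% lower under the KD label, against 26.9% each way of all genes and 40.2% and 43.2% of the other genes at 13 or more. Under the OE label they were 45.5% and 18.2%, against 16.9% and 18.0%, and 33.0% and 39.3%. Among these genes RPS19, the most often mutated gene of that disease, had -0.038 in the libraries labelled KD and -0.034 in those labelled OE. Only the former was called, and it was lost without parental replicate 1 or 2, KD replicate 2 or OE replicate 2, at differences from -0.039 to -0.0097. It was also lost at a mean rlog of at least 5, with the length and GC correction (-0.030) and with block medians over all genes (-0.022). RPS26 was lower in both (-0.040 and -0.045), and its KD call was lost without parental replicate 2 or KD replicate 2 (-0.032 and -0.036). RPS6, the substrate of S6 kinase, was higher in the libraries labelled KD by 0.076, which became 0.0035 and was not called with block medians over all genes, and with neighbours' medians subtracted it was lower by -0.077. RPS27A, a ubiquitin fusion gene, was higher in those labelled OE by 0.055. RPS15A was higher there too, by 0.072. With no variance trend, the KD calls of RPS6, RPL11, RPS19, RPS26 and FAU and the OE calls of RPLP2, RPS27A, RPL36AL and POLR1D were lost. With median scaling, the KD call of FAU and the OE calls of RPLP2, RPL36AL and POLR1D were lost.

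Other genes of the translation machinery were counted in the same way. For comparison, the calls over all genes were 26.9% each way under the KD label, and 16.9% higher and 18.0% lower under the OE label. Of 20 listed translation factors and other coding genes with TOP mRNAs 18 were analysed, and 11 were higher and 5 lower in KD-labelled libraries (median 0.047). In those labelled OE 14 were higher and 1 lower (median 0.044), beside a median of 0.054 for the ribosomal proteins. EIF4A2, a helicase of the cap-binding complex, led in both, by 0.54 and 0.20, and the elongation factor subunit EEF1D was lowest in both, by -0.35 and -0.17. EIF4A2 lies in the block of RPL39L and EEF1D in that of RPL8, and with neighbours' medians subtracted they had 0.32 and 0.19, and -0.13 and -0.079. Of 13 listed host genes of small nucleolar RNAs 11 were analysed: 6 were higher (54.5%) and 2 lower (18.2%) in KD-labelled libraries, and 2 higher (18.2%) and 4 lower (36.4%) in those labelled OE. SNHG8 differed by 0.25 and SNHG15 by -0.37 in the former, and SNHG29 by 0.093 and SNHG12 by -0.20 in the latter.

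Ribosome assembly factors were mostly lower. The shares of all genes were 26.9% each way under the KD label, and 16.9% higher and 18.0% lower under the OE label. Of 30 listed assembly factors 27 were analysed. In the libraries labelled KD 22 were lower (81.5%) and 3 higher (11.1%), with a median of -0.19. In those labelled OE 17 were lower (63.0%) and 1 higher (3.70%), with a median of -0.088. RRP9, a protein of the U3 particle on chromosome 3, had the lowest value in the former (-0.60), and NOP56, a core protein of box C/D particles, in the latter (-0.31, and -0.49 in those labelled KD). RRP9 lies in the block of RPL29, and with neighbours' medians subtracted it had -0.30, and NOP56 -0.16 and -0.35. FBL, the methyltransferase of the same particles, was higher in both (0.12 and 0.12). Counts of the assembly list with neighbours' medians subtracted are not given here. Of 7 dedicated chaperones of ribosomal proteins, 1 (14.3%) was higher and 5 (71.4%) lower in KD-labelled libraries. PDCD2 had 0.094 there (0.053 with neighbours' medians subtracted) and HEATR3 -0.25. In the libraries labelled OE GRWD1 was lower (-0.23) and the other 6 were not called, so 14.3% were lower.

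Of 14 listed subunits and factors of RNA polymerase I 13 were analysed, with 4 higher (30.8%) and 5 lower (38.5%) in KD-labelled libraries, near the shares of all genes (26.9% each way), and 1 higher (7.69%) and 5 lower (38.5%) in those labelled OE (16.9% and 18.0% of all genes). POLR1D was higher in both (0.22 and 0.057), POLR1F was lowest in the former (-0.22) and POLR1G in the latter (-0.23). The OE call of POLR1D was lost without parental replicate 3 or OE replicate 1 (0.044 and 0.052), and with neighbours' medians subtracted (0.044). Of 15 listed regulators 14 were analysed, with 5 higher and 5 lower in KD-labelled libraries (35.7% each way) and 2 higher (14.3%) and 7 lower in those labelled OE. MYC was lower in both (-0.41 and -0.14), and EIF4EBP1, a translation repressor that mTOR inactivates, was higher in both (0.27 and 0.085). With neighbours' medians subtracted, MYC had -0.16 and -0.11, and the OE call of EIF4EBP1 was lost (0.024).

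Mitochondrial ribosomal proteins, which are encoded in the nucleus but serve another ribosome, were more often called lower than higher. Of 62 analysed, 9 were higher (14.5%) and 37 lower (59.7%) in KD-labelled libraries (median -0.082), against 26.9% of all genes each way. In the libraries labelled OE 2 were higher (3.23%), 18 lower (29.0%) and 42 not called (median -0.035), against 16.9% of all genes higher and 18.0% lower. MRPL41 had -0.77 and MRPL1 0.49 in the libraries labelled KD, and MRPS26 -0.31 and MRPS14 0.090 in those labelled OE. MRPL41 lies in the chromosome 9 block of RPL35, and with neighbours' medians subtracted it had -0.42, MRPL1 0.079 and MRPS26 -0.16. In the direct comparison 33 of the 62 (53.2%) were higher in the libraries labelled OE and 11 (17.7%) lower, against 23.5% and 23.8% of all genes.

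**Figure D5:**
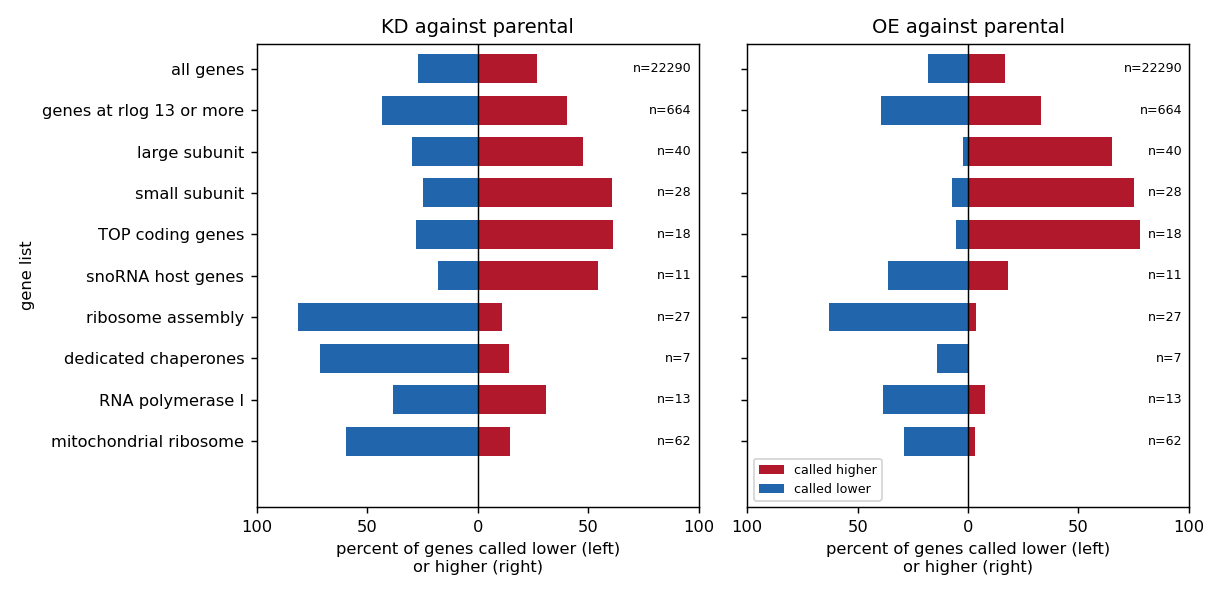
Bars give the percent of the analysed genes of each list called higher (red, right) or lower (blue, left) in the libraries labelled KD and OE against parental, with the number of genes at the right edge. In the libraries labelled OE, 65.0% of large and 75.0% of small subunit genes were higher, against 16.9% of all genes, while 63.0% of ribosome assembly genes were lower.

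Members with and without a TOP-like start were set side by side. Of the 42 members with a run, 20 were higher and 12 lower in KD-labelled libraries (median 0.030), and 30 were higher and 1 lower in those labelled OE (median 0.052). Of the 14 without, 6 were higher and 6 lower in KD-labelled libraries (median -0.0059), and 7 were higher and 3 lower in those labelled OE (median 0.054). Of all genes, 26.9% were called each way under the KD label, and 16.9% higher and 18.0% lower under the OE label. Of the other genes at 13 or more, these were 40.2% higher and 43.2% lower, and 33.0% and 39.3%.

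Reads of these genes are hard to assign. By name, 68 of the 72 members have at least 1 annotated pseudogene, and RPL21 has 133. Exonic bases are shared with another gene at over 10% in 15 members and at 0% in 33. The largest share was 53.4% for RPL10, followed by 40.8% for RPL30 and 25.9% for RPS2. How the counting treated reads that map to several places, and whether it used strand, is not given in the sources used here, so levels of these genes are uncertain.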

How the data were processed

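Libraries of mRNA (TruSeq RNA v2), made from the total RNA of 9 samples, were analysed from the deposited log2 values. Per the study's methods and the submitters' processing notes, the authors used cutadapt for trimming, HISAT2 for mapping to GRCh38 and featureCounts (Subread) for counting, removed genes with low total counts and computed rlog values with DESeq2. Versions, annotation release and strand setting are not given in the sources used here, and depth per library is unknown from rlog values. The 3 empty group columns were not used. Of the gene IDs 22195 matched a symbol in GENCODE v44 and 95 did not. All 22290 genes were fitted with limma 3.58.1 in R 4.3.3 (eBayes with a variance trend, group only, all 9 libraries), with Benjamini-Hochberg adjustment over all genes and a threshold of 0.05, after the script was tested on simulated data. Lists are described by counts and medians. Named genes were the 5 called members with the largest positive and the 5 with the most negative difference in each comparison, up to 5 called in opposite directions, the 3 highest and 3 lowest by level per length, the paralogues and their parents, members of set roles, genes outside the name rule, TRAP1, and the called extremes of each other list. A few items are not reported here. Members and lists were chosen with earlier results of these data known. Beside the main model 18 alternatives were tried: leaving out each of 9 libraries, a replicate block, no variance trend, only the 2 groups compared, a mean rlog of at least 5, median and sum scaling, a length and GC correction, and 20-Mb block medians over all genes or, added after seeing the data, over genes at 8 or more.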

Additional observations from a re-analysis of the deposited data

How the results depend on the processing

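Under the alternatives tried, 30 of the 37 members higher and 11 of the 20 lower in the libraries labelled KD were called in every one, as were 28 of 48 higher and 1 of 4 lower in those labelled OE, and 17 of 24 higher and 10 of 27 lower in OE against KD. With no variance trend, 30 members were called higher and 1 lower in OE against parental, and 12 lower in OE against KD. Leaving out each library gave 2 to 7 members lower in OE against parental. With block medians of genes at 8 or more, added after seeing the data, 2 were lower there, and the median of the members in OE against KD was 0.0327. That median, 0.00349 in the main model, was -0.0111 to 0.0170 over the fits that leave out each library, -0.00331 with median scaling and -0.000338 at a mean rlog of at least 5. The cause was not tested for the variance trend.

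Differences of single genes that were called before or after block medians were subtracted changed sign in the reported cases below, and the subtraction takes away the neighbours' difference by construction. Not called before it were RPL24 and RPL34 in KD against parental, RPL8, RPL13, RPL18 and RPS21 in OE against parental, and RPS26 in OE against KD. With block medians over all genes, RPL12 had 0.119 in KD against parental. RPL35 had 0.0168 (not called), RPL8 0.0466 and RPS21 0.0449 in OE against parental, and RPS6 had 0.0104 (not called) in OE against KD. With block medians of genes at 8 or more, the values in KD against parental were -0.0232 (not called) for RPL10A, 0.236 for RPL12, 0.0282 for RPL14, -0.0894 for RPL24, -0.0352 for RPL34, 0.0360 for RPL7A, -0.0769 for RPS6 and 0.0269 for RPSA. In OE against parental they were 0.0508 for RPL13, 0.0337 for RPL18, -0.00168 (not called) for RPL24, 0.0657 for RPL35, -0.0270 (not called) for RPL39, 0.0711 for RPL8 and 0.101 for RPS21. In OE against KD they were 0.0359 for RPS18, 0.0555 for RPS26 and 0.0998 for RPS6, and, not called, -0.0208 for RPL12, 0.00713 for RPL3, 0.0155 for RPS2 and 0.0106 for RPS9.

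The replicate numbers did not pair the libraries across all groups. Over 9956 genes, deviations from the group means correlated from -0.12 to 0.27 for the 9 pairs of the same number. Pairs of different numbers gave -0.26 to 0.15, and 4 of 9 libraries correlated best with their own number. The highest values were for KD 1 with OE 1 (0.22) and KD 3 with OE 3 (0.27), while KD 2 with OE 2 had 0.041. With the replicate block, 12015, 7854 and 10623 genes were called in KD against parental, OE against parental and OE against KD, beside 11980, 7764 and 10552 without it. The members' counts became 39 higher and 20 lower, 49 and 4, and 26 and 27. Because rlog values are shrunken, and the methods give a single read depth but not that of each library, differences of low genes such as RPL5 are uncertain.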
